A study of Arabidopsis thaliana with 6 samples.

Results

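Annotated retained introns are introns that the transcript annotation of *Arabidopsis thaliana* lists as spliced in some transcripts of a gene and left in others. Of 2515 such entries in the junction table, 1334 had a complete set of boundary and spliced counts. The set reported here is the 832, in 777 genes, that also passed a minimum of reads. The event label was IR for 728 of them and IR* for 104, and IR* was read here as an intron that overlaps another kind of annotated event. The 12903 constitutive introns that passed the same minimum are the other introns tested, 13735 in all, out of 123235 intron entries. The set was chosen by annotation and read counts and not by any difference between genotypes.

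The libraries came from whole seedlings of *prp40c-1*, a mutant whose *PRP40C* gene (AT3G19840) carries a T-DNA insertion, and of wild type (wt), with 3 biological replicates of each genotype in the Col-0 ecotype. The labels give seedlings 2 weeks old, harvested after 10 to 14 days at 22 °C in continuous white light without other treatment, and stratified for 4 days. A single insertion allele stands for the loss of *PRP40C* in these libraries. The gene counts of a library summed to 34200225 to 40919516. *PRP40C* had 12.8 ± 1.08 CPM (counts scaled to a common library size) in *prp40c-1* and 25.1 ± 2.75 CPM in wild type (SD, n = 3 each; log2 fold change -0.97, adjusted p = 2.1e-05, edgeR quasi-likelihood test), and reads from the gene were thus still present in the mutant. The summed leaf markers lay between 39585 and 43269 CPM in *prp40c-1* and between 39481 and 41239 CPM in wild type, the root markers between 2334 and 2608 CPM in *prp40c-1* and between 2232 and 2340 CPM in wild type, and the 4 seed storage genes were under 1 CPM in every library.

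An intron is left in a messenger RNA when the spliceosome does not remove it. The U1 small nuclear ribonucleoprotein recognises the 5′ splice site (donor) and U2 auxiliary factor the 3′ splice site (acceptor) of most introns, and PRP40 proteins associate with U1. Intron retention is the most common kind of alternative splicing in plants. An intron retained in a coding region often brings a stop codon into the reading frame, whereas one in an untranslated region leaves the protein unchanged.

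The retained share is the number of reads across both boundaries divided by the sum of those reads and 2 times the spliced reads, in percent. The minimum asked for a mean of 5 spliced reads in both genotypes and 5 boundary reads in one or the other. For boundary reads it was met in both genotypes by 686 members, only in *prp40c-1* by 72 and only in wild type by 74. An intron that met it in 1 genotype only is in the set through the genotype in which it had more boundary reads, and 71 of the 72 that met it only in *prp40c-1* had a log2 change of the intron ratio above 0. The 48 members just inside the limit, with 5 to under 6 boundary reads in the genotype with more, had a median share of 2.34%, and the 59 annotated introns just outside, with 4 to under 5, had a median share of 2.82%. Members had a median of 115 reads per library over boundaries and junction, and the median SD of the share between libraries of 1 genotype was 2.61 percentage points.

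The sequences of 8 introns show what a retained intron adds to a transcript. They were read from the RefSeq copy of the TAIR10 genome, in which all 832 introns coincide with an annotated intron, and run from donor to acceptor on the strand of the gene. The capitals mark the first and last pair of bases and, where retention brings one into frame, the first stop codon. The first set holds 3 of the introns with higher and 1 with a lower share in *prp40c-1* that are described below, and shows where a stop codon enters the frame.
WRKY26 intron 1, chr5:2204466-2204607, plus strand: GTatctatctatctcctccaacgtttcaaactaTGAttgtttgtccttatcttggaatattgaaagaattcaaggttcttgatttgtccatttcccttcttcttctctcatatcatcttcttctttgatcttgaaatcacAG
ALG12 intron 2, chr1:404843-404911, plus strand: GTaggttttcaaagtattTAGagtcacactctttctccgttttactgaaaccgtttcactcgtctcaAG
ALDH6B2 intron 17, chr2:5977834-5977921, minus strand: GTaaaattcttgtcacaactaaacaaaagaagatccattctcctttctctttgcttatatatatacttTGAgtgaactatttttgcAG
QPT intron 1, chr2:167072-167159, minus strand: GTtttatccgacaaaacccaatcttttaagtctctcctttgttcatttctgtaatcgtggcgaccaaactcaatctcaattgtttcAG

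The second set holds introns that keep the reading frame and had counted shares above 90% in both genotypes, so that the sequence reads through as coding. *UBQ10* is shown for its repeated sequence, which leaves its share uncertain.
ARASP intron 1, chr2:13788997-13789107, minus strand: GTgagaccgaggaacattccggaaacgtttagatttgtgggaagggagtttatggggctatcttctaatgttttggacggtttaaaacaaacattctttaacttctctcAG
MEE14 intron 3, chr2:6921387-6921470, minus strand: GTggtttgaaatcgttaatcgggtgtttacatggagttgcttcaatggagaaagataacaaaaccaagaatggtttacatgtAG
AT1G68660 intron 3, chr1:25778139-25778228, minus strand: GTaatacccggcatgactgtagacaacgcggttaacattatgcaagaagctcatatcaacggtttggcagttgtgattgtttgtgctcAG
UBQ10 intron 2, chr4:2719063-2719290, plus strand: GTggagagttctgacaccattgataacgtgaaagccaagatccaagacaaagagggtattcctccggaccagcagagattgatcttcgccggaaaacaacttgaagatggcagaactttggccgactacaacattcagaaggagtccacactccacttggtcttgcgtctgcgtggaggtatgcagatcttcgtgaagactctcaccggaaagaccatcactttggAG

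Annotated introns were retained over the whole range of shares in both genotypes. The mean share was at least 50% for 135 members in *prp40c-1* and for 124 in wild type, between 10 and 50% for 279 in *prp40c-1* and 264 in wild type, between 1 and 10% for 347 in *prp40c-1* and 375 in wild type, and under 1% for 71 in *prp40c-1* and 69 in wild type. The median member was retained at 9.82% in *prp40c-1* and at 8.95% in wild type, whereas the median constitutive intron was at 2.82% in *prp40c-1* and at 2.32% in wild type. Introns labelled IR* had higher medians, 15.8% in *prp40c-1* and 15% in wild type, than those labelled IR, with 8.77% in *prp40c-1* and 7.95% in wild type. The share counts the spliced reads of 1 junction only. If IR* introns overlap another event, reads spliced at its other sites are left out, and the effect on these medians was not tested.

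Library by library, the median share of the members was 9.84, 9.14 and 9.49% in the *prp40c-1* libraries, against 8.68, 7.96 and 8.61% in the wild-type libraries. The constitutive introns had medians of 2.51, 2.44 and 2.43% in *prp40c-1*, against 2.13, 1.99 and 1.96% in wild type. The genotypes did not overlap in either class of intron, and the ratio of the medians of *prp40c-1* over wild type was 1.10 for the members and 1.22 for the constitutive introns. Over summed reads, which are weighted to the most expressed introns, the members had 26.4, 26.7 and 25.9 boundary reads per 100 spliced reads in *prp40c-1* and 28.0, 26.1 and 24.5 in wild type, and here the genotypes overlapped. The constitutive introns had 3.16, 3.17 and 3.16 boundary reads per 100 spliced reads in *prp40c-1* and 2.85, 2.62 and 2.62 in wild type, without overlap.

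**Figure D1:**
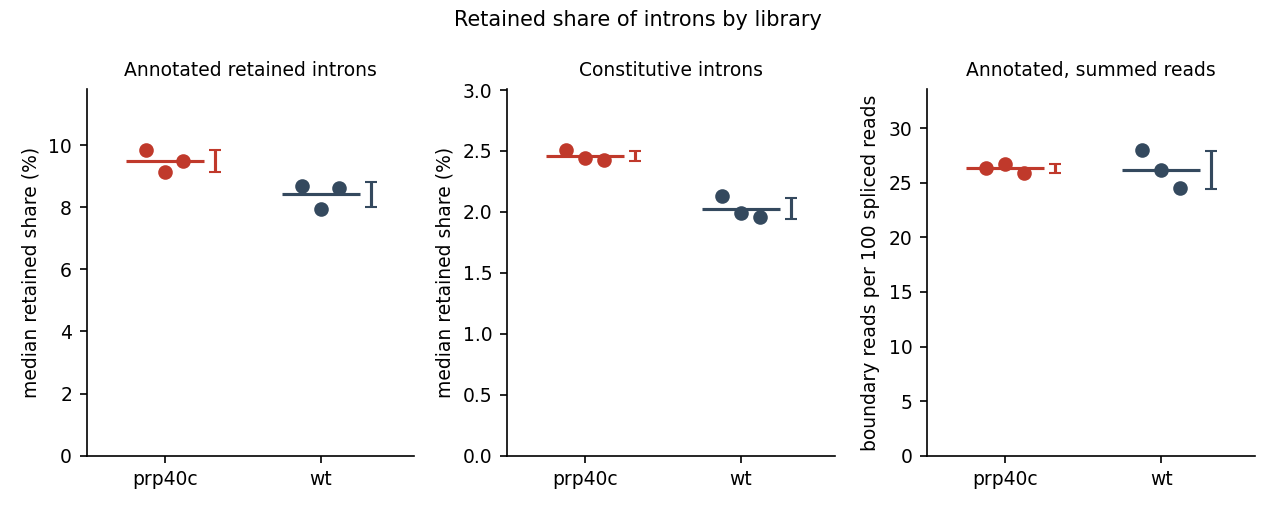
Points are single libraries of prp40c (left) and wt (right), the horizontal line is their mean and the bar their SD (n = 3). The left and middle panels give the median retained share in percent, between 7.96 and 9.84% for annotated retained introns and between 1.96 and 2.51% for constitutive introns, and the right panel the boundary reads per 100 spliced reads summed over the annotated introns, in which the genotypes overlap.

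Where an intron lay in the transcript went with how much of it was retained. Of the members, 562 interrupted a coding sequence, 178 (21.4%) lay in a 5′ untranslated region (UTR), 78 (9.38%) in a 3′ UTR and 14 in noncoding transcripts, whereas 3.98% of the constitutive introns lay in 5′ UTRs and 1.97% in 3′ UTRs. The median share was 26.9% in *prp40c-1* and 21.9% in wild type for introns of 5′ UTRs, and 28.0% in *prp40c-1* and 25.8% in wild type for those of 3′ UTRs. The 445 coding introns that bring a stop codon into frame had medians of 6.08% in *prp40c-1* and 5.68% in wild type. The 71 coding introns that keep the frame without a stop had medians of 14.6% in *prp40c-1* and 12.5% in wild type, and the 46 that shift the frame but hold no stop had 5.98% in *prp40c-1* and 4.5% in wild type. In wild type a share of 50% or more was reached by 22 of the 71 introns that keep the frame and by 24 of the 445 that bring a stop. Constitutive introns also had higher shares in UTRs, with wild-type medians of 7.37% in 5′ UTRs and 6.93% in 3′ UTRs. Their coding classes, in contrast to those of the members, had similar wild-type medians, 2.07% where the frame was kept and 2.17% where a stop came into frame. These are descriptions across introns of the same 6 libraries, without a test.

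**Figure D2:**
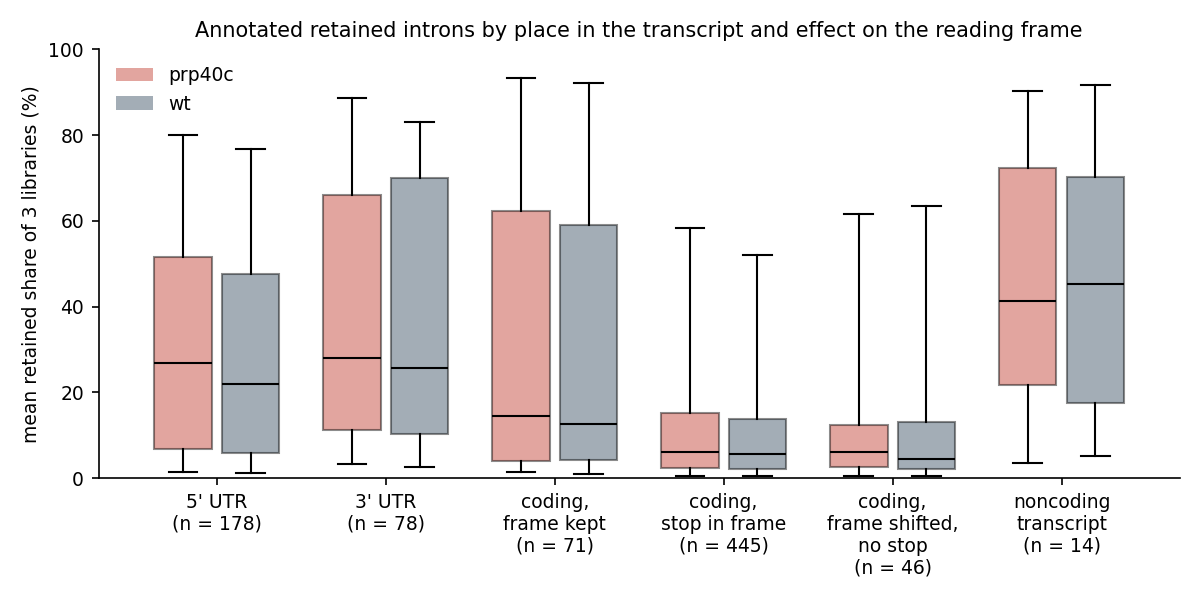
Boxes give the quartiles and median, and whiskers the 5th and 95th percentiles, of the mean retained share of 3 libraries (%), with prp40c left of wt in each class and the number of introns under it. The medians of the UTR classes lie between 21.9 and 28.0%, and those of coding introns with a stop in frame at 6.08% in prp40c and 5.68% in wt.

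The splice sites of the members were close to those of other introns. A GT donor began 823 of the 832 and a GC donor the other 9, which is 1.08% against 1.25% of constitutive introns. The median length was 98 bases (60 to 2075) and the median GC content 33.9%, against 101 bases and 33.0% for constitutive introns. Lengths divisible by 3 made up 38.8% of the coding members and 32.6% of the coding constitutive introns. A score of the donor (bases -3 to 8) and the acceptor (15 intron bases and 2 exon bases), the summed log2 ratio of base frequencies over all tested introns to equal frequencies, had medians of 6.84 and 7.80 for members, against 7.10 and 8.13 for constitutive introns. Among the members, the 208 with the highest wild-type shares (27.9% and above) had a median donor score of 5.93 and acceptor score of 7.06, and the 208 with the lowest (up to 3.04%) had 7.35 and 8.16. Across the 832 introns of these shared libraries the wild-type share had a Spearman rho of -0.21 with the donor score, -0.15 with the acceptor score, 0.16 with GC content and 0.03 with length. RefSeq annotated an exon spanning the intron for 98.7% of the members and for 14.0% of the constitutive introns.

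The highest shares were close to complete retention in both genotypes. Among members with at least 50 reads in every library, the intron of *UBQ10*, a polyubiquitin gene, had the highest mean over all 6 libraries, with 99.4, 99.4 and 99.6% in *prp40c-1* and 99.8, 99.2 and 99.3% in wild type. It is 96.5% identical to the stretch of the same length beside it, since the gene repeats the ubiquitin unit, and it was the only member with an identity of at least 60% (median of all members 29.4%). Reads of that intron can therefore match more than 1 unit, and its value is uncertain. *ARASP*, which encodes a chloroplast membrane metalloprotease, retained its frame-keeping intron at 96.3 ± 1.0% in *prp40c-1* and 96.0 ± 0.96% in wild type (SD, n = 3 each). *MEE14*, named for an arrest of embryo development, retained its intron at 94.8 ± 0.96% in *prp40c-1* and 95.6 ± 0.77% in wild type (SD, n = 3 each), and AT1G68660, which is annotated with a Clp protease adaptor domain, at 94.6 ± 2.5% in *prp40c-1* and 94.8 ± 0.86% in wild type (SD, n = 3 each). The difference between genotypes was within the spread of the libraries for these 3 introns. *ASP5*, an aspartate aminotransferase, retained its last intron at 96.3 ± 3.2% in *prp40c-1* and 96.3 ± 1.6% in wild type (SD, n = 3 each). In the 3′ UTRs of *GLT1*, a glutamate synthase, and of *MAC3B*, a subunit of the spliceosome-associated MOS4 complex, the mean shares were 96.3% in *prp40c-1* and 96.7% in wild type for *GLT1* and 96.0% in *prp40c-1* and 93.6% in wild type for *MAC3B*.

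The phosphoglycerate kinase gene AT1G56190 was the only one of the 10 introns with the highest shares that reached an unadjusted p below 0.05. Its 5′ UTR intron was retained at 98.3, 99.2 and 99.1% in *prp40c-1*, against 96.8, 96.6 and 96.7% in wild type. The spliced reads behind it were 9, 4 and 5 in *prp40c-1* and 18, 19 and 15 in wild type. All *prp40c-1* libraries lay above all wild-type libraries (log2 change of the ratio of boundary to spliced reads 1.53, standard error 0.53, adjusted p = 0.39, edgeR quasi-likelihood test).

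For some introns a high share rested on 1 boundary only. At the median member, 39.4% of the boundary reads lay at the boundary with fewer, and 44 members had under 10% there, of which 8 had none. In *CHLM*, a methyltransferase of chlorophyll synthesis with shares of 98.2% in *prp40c-1* and 98.6% in wild type, the boundary reads of the replicates were 37, 22 and 22 at the first boundary and 1000, 829 and 877 at the second in *prp40c-1*, and 33, 26 and 26 at the first and 932, 942 and 956 at the second in wild type. The gene with the symbol *PSI-P* (AT2G46820), at 95.6% in *prp40c-1* and 94.5% in wild type, had 0 to 2 reads at the first boundary of each *prp40c-1* library and 2 to 6 in each wild-type library, beside 2432 to 3701 at the second over all libraries. *FCA*, an RNA-binding regulator of flowering known for a short transcript that ends within its intron 3, had 1, 1 and 2 reads at the first and 19, 26 and 27 at the second boundary of this intron of 2075 bases in *prp40c-1*, and 3, 2 and 4 at the first and 18, 21 and 34 at the second in wild type. The share of these introns therefore does not measure transcripts that hold the whole intron. None of the 44 introns under that 10% limit was at an unadjusted p below 0.05, beside 5.65% of all members, and nothing is read from so small a count. AT4G27120, described below, lay above the limit although its boundary reads were also mostly on 1 side. With the boundary with fewer reads in place of the mean of both, the median share of the members was 5.77% in *prp40c-1* and 5.37% in wild type.

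The comparison of genotypes asked whether loss of *PRP40C* changed the retention of these introns. Individual introns showed large differences in both directions, led by *WRKY26* at 57.9% in *prp40c-1* and 26.0% in wild type and by the DDRGK domain gene AT4G27120 at 11.1% in *prp40c-1* and 31.9% in wild type. However, none of the 832 members passed the thresholds of the study, an adjusted p (FDR) below 0.15 and a log2 change above 0.58 in either direction. The study applied them to another measure, an exact test on the reads counted within each intron. With it the study reported introns with altered splicing, a few of them annotated as alternatively spliced. The proportion with increased retention was larger there for alternatively spliced than for constitutive introns, and some splicing changes were also checked by RT-PCR. Here the thresholds were applied to boundary reads against spliced reads, so the absence of calls is not a repeat of the study's test. By this measure, the share of members at an unadjusted p below 0.05, given below, was not larger than that of all introns. The smallest FDR of a member was 0.34, with edgeR's quasi-likelihood test of the interaction of read type and genotype over all 13735 introns, of which 0% were called. DESeq2 called 0 of the members, with a smallest adjusted p of 0.154, although it called 111 of the 13735 introns.

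At an unadjusted p below 0.05 there were 47 members, 5.65% of the set, beside 10.6% of all introns tested. The share was higher in *prp40c-1* for 29 of them (3.49% of the members, beside 7.24% of all introns) and lower for 18 (2.16%, beside 3.36%). Without *prp40c-1* replicate 3 the number was 28, and the share over all introns was not counted there. The groups of libraries did not overlap for 81 members with higher values in *prp40c-1* (9.74%, beside 11.7% of all introns) and for 48 with lower values (5.77%, beside 5.88%). The members at p below 0.05 were thus a smaller share than among all introns, and members had fewer reads per library than constitutive introns (medians 115 and 153) and a larger SD of the share between libraries (2.61 and 1.24 percentage points); the part of these in the smaller share was not tested.

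The median log2 change of the boundary to spliced ratio was 0.11 over the members and 0.19 over all introns, and 57.9% of both had a value above 0. With each column's own total as library size, which centres the ratio on the whole table, the median of all introns was 0.00 and that of the members -0.08. The members at p below 0.05 were then 23 with higher values (beside 5.15% of all introns) and 30 with lower values in *prp40c-1* (beside 4.96%). Without a read minimum, which left 1334 annotated introns among 91086, there were 11 with higher and 18 with lower values. Without wild-type replicate 2 there were 18 and 17. The shares over all introns were not counted for these settings, so a move of the whole table is not told apart from one of the members. The balance of directions among the members at p below 0.05 therefore changed with the library sizes, the read minimum and the libraries included. By class, the members at p below 0.05 in the main comparison were 9 higher and 1 lower of the 178 in 5′ UTRs, beside 19 and 10 of 514 constitutive introns there. They were 2 higher and 0 lower of the 78 in 3′ UTRs, beside 12 and 6 of 254. Of the 445 coding members with a stop in frame they were 17 higher and 16 lower, beside 847 and 368 of 10865 constitutive introns. None of the 71 members that keep the frame was among them, beside 18 higher and 13 lower of 285, and of the 46 that shift the frame without a stop 1 was higher and 1 lower, beside 67 and 43 of 899.

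Among the 10 introns with the largest higher shares, 6 interrupted coding sequences and each of these brings a stop codon into frame. Intron 1 of *WRKY26*, a WRKY transcription factor of the heat response, was retained at 34.9, 72.2 and 66.7% in *prp40c-1*, against 34.5, 20.6 and 23.1% in wild type. The lowest *prp40c-1* library lay only just above the highest wild-type library. The boundary reads were 30, 52 and 64 in *prp40c-1* and 20, 14 and 12 in wild type, and the log2 change was 1.99 (standard error 0.79, adjusted p = 0.42, edgeR quasi-likelihood test). The first stop codon stands at base 34 of this intron of 142 bases. The intron was no longer below the unadjusted threshold without *prp40c-1* replicate 2 or 3 or wild-type replicate 2 or 3. The same held with the first boundary alone and without a read minimum. *WRKY26* intron 2, also a member, was at 49.0% in *prp40c-1* and 37.1% in wild type, with overlapping libraries. Intron 2 of *ALG12*, a mannosyltransferase that builds the sugar chain for protein glycosylation, was retained at 18, 9.50 and 9.64% in *prp40c-1*, against 2.46, 2.05 and 5.22% in wild type. It had 43, 21 and 19 boundary reads in *prp40c-1* and 5, 6 and 13 in wild type, while the spliced reads were 89 to 100 in *prp40c-1* and 99 to 143 in wild type (log2 change 2.07, standard error 0.66). The last intron of *ALDH6B2*, an aldehyde dehydrogenase of valine breakdown, was at 12.9, 15.6 and 12.3% in *prp40c-1*, against 4.00, 5.96 and 4.66% in wild type (log2 change 1.63, standard error 0.51). The *prp40c-1* libraries of *ALG12* and *ALDH6B2* were all well above those of wild type, and the host genes had log2 fold changes of 0.27 and 0.01.

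**Figure D3:**
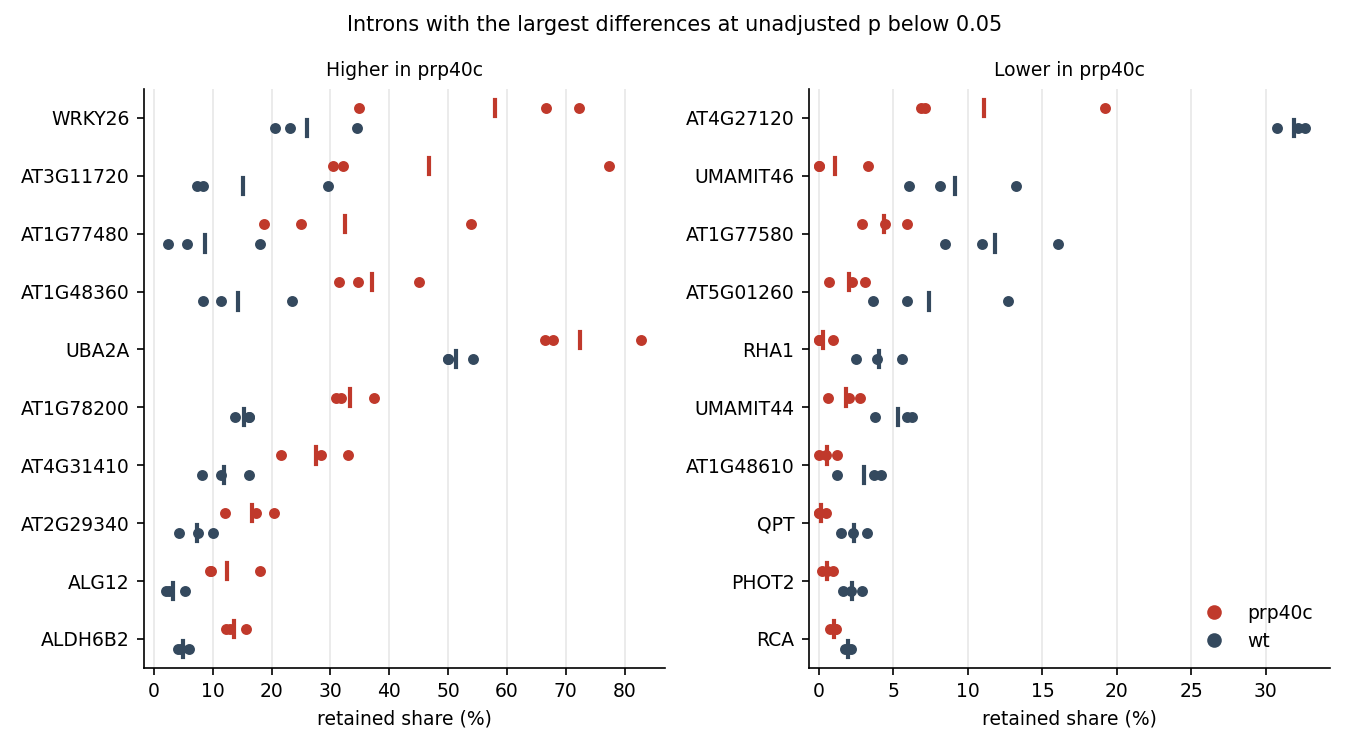
Points are the retained share (%) in single libraries and ticks their mean, with prp40c above wt for each intron, for the 10 introns with the largest higher (left) and the 10 with the largest lower mean share in prp40c among those at unadjusted p below 0.05 without overlap of the libraries. The prp40c libraries of WRKY26 spread from 34.9 to 72.2%, and those of ALDH6B2 from 12.3 to 15.6%.

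Introns outside coding sequence were also among the 10. The 3′ UTR intron of *UBA2A*, which encodes an RNA-binding protein of the UBP1-associated family, was retained at 66.5, 67.9 and 82.8% in *prp40c-1*, against 54.2, 50.0 and 50.0% in wild type. Its spliced reads numbered 30, 30 and 14 in *prp40c-1* and 55, 49 and 54 in wild type, whereas the level of the gene was 95.2 CPM in *prp40c-1* and 96.1 CPM in wild type. A 5′ UTR intron of the protein phosphatase 2C gene AT1G78200 was at 31.8, 37.3 and 30.9% in *prp40c-1*, against 16.2, 13.7 and 16.1% in wild type, and these libraries were tight in both genotypes. Its log2 change was 1.46 (standard error 0.65, adjusted p = 0.46, edgeR quasi-likelihood test). With any 1 library left out, this intron was no longer below the unadjusted threshold. The 3′ UTR intron of AT4G31410, a putative ubiquitin ligase gene, averaged 27.6 ± 5.7% in *prp40c-1* and 11.9 ± 4.0% in wild type (SD, n = 3 each). The other 4 were AT3G11720, a lipid transport family gene whose 5′ UTR intron had 46.7 ± 27% in *prp40c-1* and 15.1 ± 13% in wild type, AT1G77480, an aspartyl protease gene with 32.5 ± 19% in *prp40c-1* and 8.68 ± 8.2% in wild type, AT1G48360, a nucleic acid binding hydrolase gene with 37.0 ± 7.1% in *prp40c-1* and 14.3 ± 8.0% in wild type, and AT2G29340, an epimerase family gene with 16.6 ± 4.2% in *prp40c-1* and 7.28 ± 2.9% in wild type (SD, n = 3 each).

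The 10 introns with the largest lower shares rested on few boundary reads in *prp40c-1*, with *RCA* as the exception. AT4G27120 had shares of 6.85, 7.14 and 19.2% in *prp40c-1*, against 32.2, 30.8 and 32.7% in wild type, in a 5′ UTR intron whose boundary reads lay mostly on 1 side, with 0, 0 and 1 reads at the second boundary in *prp40c-1* and 3, 2 and 5 in wild type. In *QPT*, an enzyme that makes an NAD precursor, intron 1 had boundary reads of 0, 2 and 0 in *prp40c-1*, against 7, 10 and 4 in wild type, beside 185, 213 and 129 spliced reads in *prp40c-1* and 149, 150 and 134 in wild type. Its shares were 0, 0.467 and 0% in *prp40c-1* and 2.30, 3.23 and 1.47% in wild type, where a count of 0 allows shares of up to 0.804 and 1.15% in the *prp40c-1* libraries without a boundary read. Intron 20 of *PHOT2*, a blue light receptor, was at 0.535, 0.94 and 0.23% in *prp40c-1*, against 1.61, 2.17 and 2.92% in wild type, with 369 to 496 spliced reads in each library (log2 change -2.02, standard error 0.64).

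The deepest of these lower introns was the last intron of *RCA*, Rubisco activase, an intron known for the alternative splicing that yields the long and short forms of the protein. It had 199, 179 and 109 boundary reads in *prp40c-1*, against 397, 344 and 460 in wild type, and 7024 to 9246 spliced reads in *prp40c-1* and 9131 to 11704 in wild type. The shares were 1.06, 1.16 and 0.77% in *prp40c-1* and 2.13, 1.74 and 1.93% in wild type, without overlap, and the level of the gene had a log2 fold change of -0.25 (log2 change of the intron ratio -0.98, standard error 0.31, adjusted p = 0.37, edgeR quasi-likelihood test). The other 6 were *UMAMIT46* and *UMAMIT44*, both of a family of amino acid transporters, *RHA1*, a winged-helix transcription factor gene, AT1G77580, AT5G01260 and AT1G48610, with mean shares of 0.306 to 4.39% in *prp40c-1* and 3.01 to 11.8% in wild type. The 20 introns were chosen for libraries that do not overlap, so an exact permutation test over 3 libraries against 3 could only give its smallest value and adds nothing. *QPT*, *RHA1*, *PHOT2*, *UMAMIT46*, AT5G01260 and AT1G48610 met the minimum of boundary reads only in wild type, and AT1G77480, among the higher ones, only in *prp40c-1*.

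With a minimum of 10 reads in place of 5, which left 585 members among 6329 introns, 5 members passed the thresholds (0.855%, beside 2.16% of all introns). The FDR values of the edgeR test were 0.136 for *ALG12* and 0.117 for *ALDH6B2*. The other 3 were chosen after their values were seen. Intron 9 of AT4G16765, an oxygenase family gene, had 22, 7 and 21 boundary reads in *prp40c-1*, against 3, 0 and 0 in wild type, and shares of 11.6, 2.98 and 9.17% in *prp40c-1* and 1.57, 0 and 0% in wild type, where a count of 0 allows 1.84 and 2.1%. It met the minimum of boundary reads only in *prp40c-1*. The 5′ UTR intron of the reticulon family gene AT3G10260 was at 14.4, 14.4 and 10.5% in *prp40c-1* and 5.03, 4.97 and 3.45% in wild type. Intron 5 of *FBA1*, a chloroplast fructose-bisphosphate aldolase, was lower, at 0.427, 0.30 and 0.291% in *prp40c-1* and 1.16, 0.689 and 0.943% in wild type, from 17 to 30 boundary reads in *prp40c-1* and 56 to 96 in wild type. These 5 introns did not overlap between genotypes, and the call depended on the minimum.

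Many splicing factors are known to be alternatively spliced themselves, and 4 of the members lay in genes of the 2 lists of such factors. *U1-70K*, a core protein of the U1 particle whose intron 6 is long and known to be included in part of its transcripts, had 134, 117 and 132 boundary reads of this intron in *prp40c-1*, against 74, 65 and 70 in wild type. The spliced reads were 235, 250 and 242 in *prp40c-1* and 315, 249 and 220 in wild type, and the shares 22.2, 19 and 21.4% in *prp40c-1* and 10.5, 11.5 and 13.7% in wild type. The groups did not overlap, but the test did not reach the unadjusted threshold (log2 change 0.97, standard error 0.47, adjusted p = 0.50, edgeR quasi-likelihood test), and the gene had a level of 104 CPM in *prp40c-1* and 80.7 CPM in wild type (log2 fold change 0.36). The intron spans chr3:18827440-18828348 on the minus strand, 909 bases, and its splice sites are shown here with the intron ends in capitals.
U1-70K intron 6, donor: cggGTaggtta
U1-70K intron 6, acceptor: tctgaaacttctcAGgt

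*RS2Z33*, a serine/arginine-rich (SR) splicing factor, had shares of 5.43, 6.98 and 6.28% in intron 3 in *prp40c-1*, against 3.38, 4.48 and 3.80% in wild type, also without overlap (log2 change 0.72, standard error 0.47). *U2AF65A*, the large subunit of the factor that binds the acceptor side, was retained at 44.3 ± 4.4% in *prp40c-1* and 36.8 ± 6.4% in wild type, and the 3′ UTR intron of the SR factor *SC35* at 53.0 ± 8.7% in *prp40c-1* and 52.7 ± 14% in wild type (SD, n = 3 each), in both cases with overlapping libraries. None of the 4 introns was at an unadjusted p below 0.05. These were the members among 20 SR genes and 23 other spliceosome and RNA-binding genes listed, of which 2 and 2 genes held a member.

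In the circadian clock list, 2 of 24 genes held 4 members, of which 1 was at an unadjusted p below 0.05, beside 10.6% of all introns. *LHY*, a morning transcription factor of the clock, had 8, 3 and 10 boundary reads of its 5′ UTR intron in *prp40c-1*, against 0, 1 and 2 in wild type, with 36 to 65 spliced reads in *prp40c-1* and 33 to 49 in wild type. Its shares were 5.80, 4.00 and 9.43% in *prp40c-1* and 0, 1.15 and 2.94% in wild type, where a count of 0 allows 2.97%. The groups did not overlap (log2 change 2.34, standard error 1.00, adjusted p = 0.45, edgeR quasi-likelihood test). The intron met the minimum of boundary reads only in *prp40c-1*, and it was no longer below the unadjusted threshold with column totals, with the first boundary alone, without a read minimum, or without *prp40c-1* replicate 1 or 3 or wild-type replicate 1 or 2. The level of the gene rose to 93.8 CPM in *prp40c-1*, against 61.1 CPM in wild type (log2 fold change 0.62, adjusted p = 5.9e-04, edgeR quasi-likelihood test). The intron lies at chr1:37399-37568 on the minus strand, and its donor is shown because it departs from the most common plant donor after the GT in capitals.
LHY intron 1, donor: aggGTataaca

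The 3 members of *LNK2*, a clock coactivator, had mean shares of 28.2% in *prp40c-1* and 26.2% in wild type for intron 1, 1.14% in *prp40c-1* and 0.799% in wild type for intron 2, and 4.58% in *prp40c-1* and 4.31% in wild type for intron 8, and the libraries overlapped in each. The level of *LNK2* rose (154 CPM in *prp40c-1* and 93.1 CPM in wild type, log2 fold change 0.73). Of 24 genes of light signalling and flowering, 4 held a member and none was at p below 0.05. The means were 25.5% in *prp40c-1* and 25.2% in wild type for *HYH*, a light-signalling bZIP factor, 11.1% in *prp40c-1* and 14.0% in wild type for *FLM*, a repressor of flowering, and 31.5% in *prp40c-1* and 47.1% in wild type for *FCA*. *CO*, an activator of flowering, had shares of 41.7, 42.9 and 31.7% in *prp40c-1* and 2.86, 15.4 and 66.7% in wild type, the last from 4 boundary reads and 1 spliced read. The introns of *CO* and intron 2 of *LNK2* met the minimum of boundary reads only in *prp40c-1*. Their mean boundary reads were 11.7 and 5.33 in *prp40c-1*, against 3 and 2.33 in wild type.

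The defence list had 2 members in 13 genes. The 5′ UTR intron of *NUDT7*, a hydrolase that restrains immune responses, was at 68.4 ± 5.8% in *prp40c-1* and 58.4 ± 2.6% in wild type without overlap, and the intron of the resistance gene *RPP5* at 13.9 ± 2.3% in *prp40c-1* and 12.5 ± 1.3% in wild type (SD, n = 3 each). *RPP5* belongs to a cluster of close paralogs, between which reads may be split. *HAB1*, a phosphatase of abscisic acid signalling and the single member among 16 stress genes, was at 14.6 ± 2.5% in *prp40c-1* and 15.7 ± 2.5% in wild type (SD, n = 3 each). The photosynthesis list had *RCA* and *LHCA1* among 12 genes. Over all lists, 17 introns of 15 genes were members, with 1 higher and 1 lower at an unadjusted p below 0.05 (beside 7.24% and 3.36% of all introns) and a median log2 change of 0.17, beside 0.11 over all members.

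**Figure D4:**
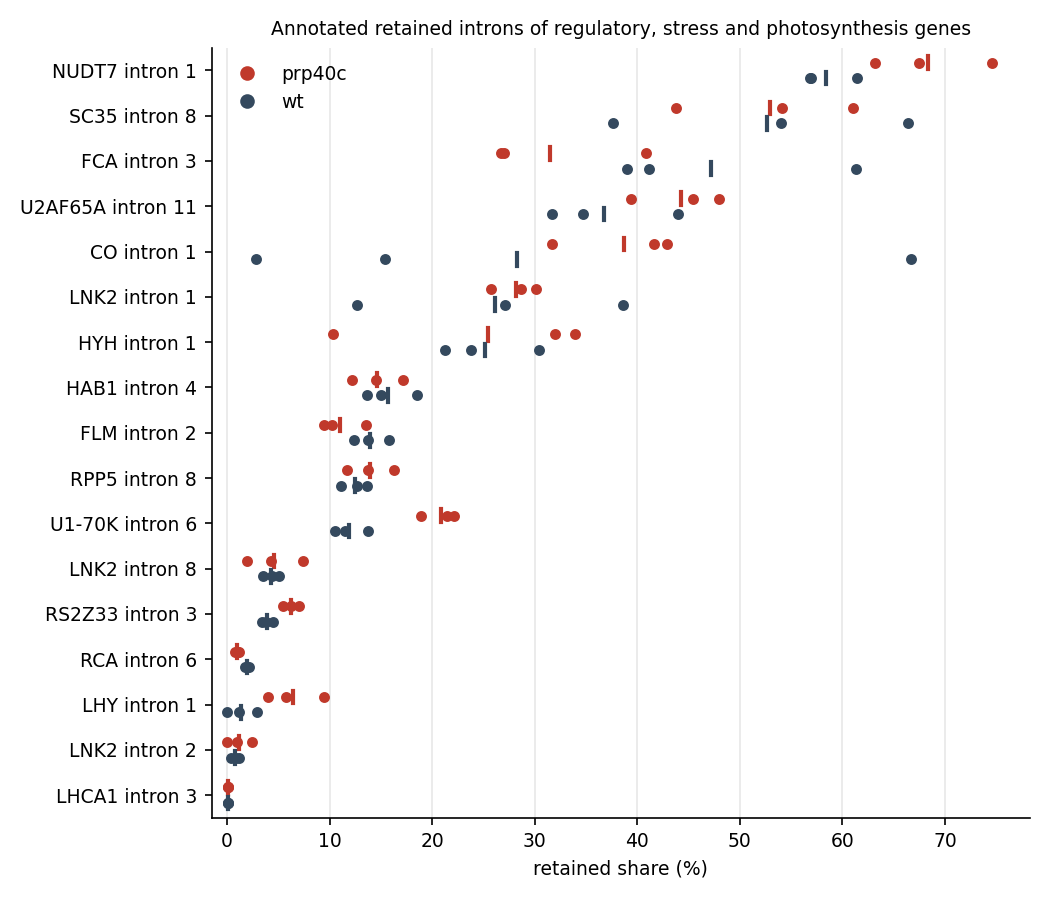
Points are the retained share (%) in single libraries and ticks their mean, with prp40c above wt, for the 17 annotated retained introns of the listed genes, ordered by the wild-type mean. The libraries of U1-70K intron 6 lie at 19 to 22.2% in prp40c and 10.5 to 13.7% in wt, and those of SC35, FCA and CO spread widely.

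The other 3 of the 5 introns with the most reads, beside those of *UBQ10* and *RCA*, lay in light-harvesting genes and had mean shares under 1% in both genotypes. The intron of *LHCA1*, a light-harvesting protein of photosystem I, had 42, 59 and 45 boundary reads in *prp40c-1* and 50, 58 and 55 in wild type, beside 22713 to 24658 spliced reads in *prp40c-1* and 20597 to 23277 in wild type, and shares of 0.104 ± 0.023% in *prp40c-1* and 0.126 ± 0.013% in wild type (SD, n = 3 each). The neighbouring introns 2 and 3 of *LHCA3*, of the same protein family, were retained at 0.0544 ± 0.035% in *prp40c-1* and 0.0798 ± 0.035% in wild type and at 0.430 ± 0.064% in *prp40c-1* and 0.444 ± 0.047% in wild type (SD, n = 3 each). The genotypes overlapped in all 3 introns.

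A minor spliceosome, which contains U12 in place of U2, removes a small class of introns with a strongly conserved donor. The motifs ATATCCTT and GTATCCTT at the first 8 intron bases, searched on the gene's strand only, were present in 8 members (0.962%) and in 0.612% of the constitutive introns. These lay in AT2G42240, AT1G61150, *SPD1*, *ATG6*, AT4G19150, AT5G65180, AT5G09820 and *CKB1*. Their mean shares ranged from 1.79 to 16% in *prp40c-1* and from 1.35 to 18.8% in wild type, the libraries of the genotypes overlapped in each of the 8, and the smallest unadjusted p was 0.21 (edgeR quasi-likelihood test).

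The genes that carry the annotated introns were in large part not called for a change in level, and all but 1 of those called were overexpressed in *prp40c-1*. All 777 host genes were tested, and 31 rose (3.99%, beside 2.81% of all genes) while 1, AT1G01910, fell (0.129%, beside 0.852%), at an adjusted p below 0.05 and a log2 fold change above 0.58 in either direction (edgeR quasi-likelihood test over 22182 genes). A gene became a host through boundary reads in either genotype, and a gene higher in *prp40c-1* meets the minimum there more easily. The excess over all genes is therefore not read as a result about the hosts. The largest increases were in *CYP707A3*, an enzyme that breaks down abscisic acid, with 31.6 CPM in *prp40c-1* and 5.16 CPM in wild type (log2 fold change 2.62), in *TCH3*, a touch-induced calmodulin-like protein, with 387 CPM in *prp40c-1* and 85.7 CPM in wild type (2.17), and in the ankyrin repeat gene AT2G24600 (1.90). *CYP707A3* was a host only through its *prp40c-1* reads, with 9, 12 and 6 boundary reads there and 1, 1 and 1 in wild type. *ASN1*, an asparagine synthetase repressed by light and sugar, had a log2 fold change of 1.67. Reads that lie in retained introns and exons alike enter the gene counts, and the treatment of intron reads in them was not checked.

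The 31 overexpressed genes held 39 members. Of these, 10 met the minimum of boundary reads only in *prp40c-1*, where the genes are higher, and all 10 had a log2 change of the intron ratio above 0, so the filter itself favours that direction and nothing is read from a count over the 39. At an unadjusted p below 0.05 there were 4, with higher values (10.3%, beside 7.24% of all introns), and 10 had higher values without overlap (25.6%, beside 11.7%). The 4 were in *WRKY26*, *LHY*, *EDA39*, a calmodulin-binding family gene with 10.8% in *prp40c-1* and 3.10% in wild type, and *MEK1*, a MAP kinase kinase, whose intron was retained at 4.34% in *prp40c-1* and 1.04% in wild type, and *LHY*, *EDA39* and *MEK1* met the minimum only in *prp40c-1*. The minimum on the mean of 6 libraries was met by 34 of the 39, with 3 higher and 0 lower at that threshold. Among all introns of overexpressed genes it was met by 424, with 42 higher and 15 lower, so no excess is read for the members. The 3 members of *ASN1* were at 6.30, 16 and 8.11% in *prp40c-1*, against 3.60, 9.32 and 4.73% in wild type, and shared the same gene and libraries. In contrast, *RLP19*, a receptor-like protein gene, was at 15.3% in *prp40c-1* and 31.9% in wild type, with overlapping libraries. Over all 832 members, the log2 fold change of the gene and the log2 change of the intron had a Spearman rho of 0.13, across introns that share libraries and in part genes.

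**Figure D5:**
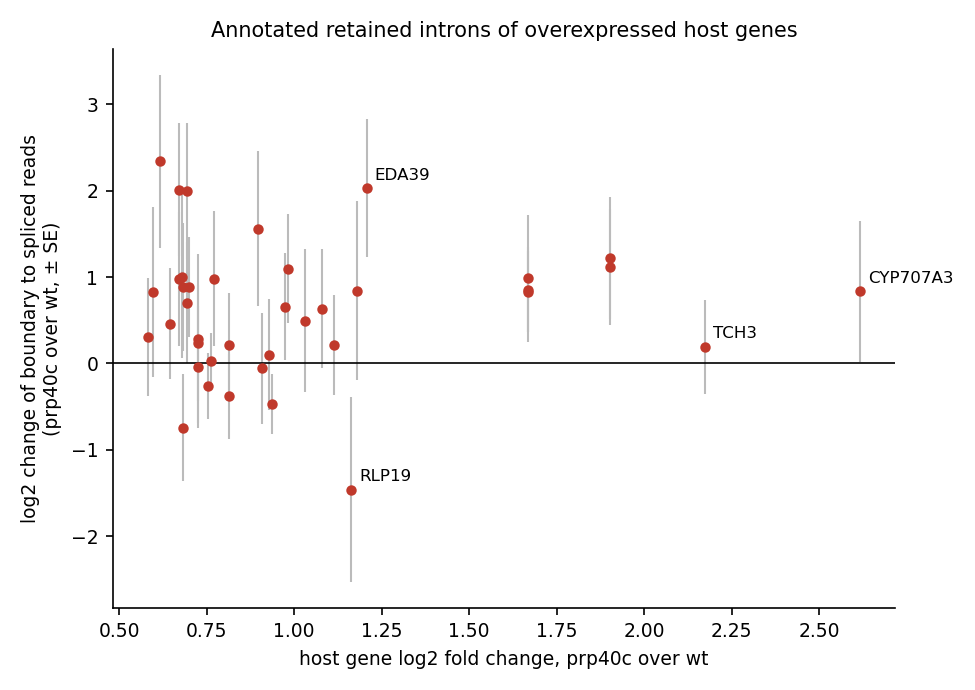
Each point is 1 of the 39 annotated retained introns in the 31 host genes overexpressed in prp40c, with the log2 fold change of the gene on the x axis and the log2 change of boundary to spliced reads (± SE) on the y axis, both prp40c over wt. The introns of EDA39 and RLP19 lie far apart at similar changes of their genes, and 10 of the 39 are in the set only through their prp40c reads.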

How the data were processed

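Poly(A) RNA libraries of 3 *prp40c-1* and 3 wild-type samples were sequenced as paired ends. The authors mapped the reads to TAIR10 and deposited raw counts per gene and, per intron, raw counts of reads across each boundary (J1, J2) and across the spliced junction (J3). The submitters' processing notes name TopHat2 2.1.1 and SAMtools 1.3. The sources used here do not state the handling of strand and of multiply mapped reads, and values of overlapping genes (6 of the hosts) and paralogs are uncertain for that reason. The deposited junction table also holds the authors' retained fraction per genotype, a share computed from counts pooled over its libraries, which was only checked against the counts, and 0 columns of single samples were left out.

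Retained shares were computed from the counts. Introns were tested with edgeR 4.0.16 (R 4.3.3), with 1 effect per library and the gene count total as library size for both read types. Genes averaging 10 counts or more in either genotype were tested with TMM scaling. DESeq2 1.42.0, other library sizes, read minimums, single boundaries, a replicate block and leaving out each library were tried as alternatives, and the scripts were tested on simulated data. Errors are SD over 3 libraries, and limits for a count of 0 (3 reads) cover counting error only.

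The introns named are the called ones, the 10 per direction with the largest difference in mean share at an unadjusted p below 0.05 without overlap, the 10 with the highest share at 50 or more reads in every library, those of listed genes, those with a U12-type donor and the 5 with most reads. The set, the gene lists and the rule were chosen with earlier results of these data known. Symbols are from RefSeq, which gave one for 394 of the members.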

Additional observations from a re-analysis of the deposited data

How the results depend on the processing

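The absence of called introns held in 14 of the 15 alternatives, the exception being the minimum of 10 reads with 5 calls. The number of members at an unadjusted p below 0.05, 47 as reported, was 28 to 46 with 1 library left out and 29 without a read minimum. The shares of all introns at that threshold were not counted for these settings or for the replicate block below. Of the 20 introns named for their differences, 10 to 13 stayed below 0.05 with 1 library left out, 10 with the first boundary alone, 13 with the second alone and 3 without a read minimum, and none changed direction. *QPT*, *RHA1* and AT1G48610 could not be tested with a minimum of 10 reads or with the minimum on the mean of all libraries. *UMAMIT44* and AT1G77480 could not be tested with a minimum of 10 reads. All others of the 20 stayed below 0.05, 15 with a minimum of 10 reads and 17 with the minimum on the mean of all libraries. *U1-70K* intron 6, above that threshold as reported, fell below it in 4 alternatives. The replicate numbers did not pair the libraries (correlations of the deviations of same-numbered libraries 0.0077, 0.0064 and 0.035 over genes), and with a replicate block 38 members and 14 of the 20 named introns were at p below 0.05, 0 were called, and 31 host genes differed in place of 32. The median share in *prp40c-1* was 12.6% with a minimum of 10 reads, 3.91% without a minimum, 8.77% for the label IR alone, 11.4% with the minimum on the mean of all libraries, 5.77% with the lower boundary and 9.13 to 9.88% with 1 library left out. In wild type these were 11.6%, 3.51%, 7.95%, 9.88%, 5.37% and 8.47 to 8.91%. In each of these the *prp40c-1* median was the higher, and the causes of the moves were not tested beyond the change in the introns counted. The host gene count was 29 to 37 with 1 library left out. Boundary reads, often under 20 per library, limited the precision for single introns.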

Other observations

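Of the annotated introns outside the set, 1181 lacked a complete set of boundary and spliced counts, 11 had too few spliced reads and 491 had enough spliced reads but too few boundary reads. These 491 had a median share of 0.717% and a median of 63.3 spliced reads per library, and 64 of them had no boundary read in any library. They were set apart for few boundary reads, so a low median share follows in part from that choice. At this depth their retention is largely undetermined, although the annotation lists a retained form. The highest share among them was 23.3%.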
